A study of Mus musculus with 6 samples.

Results

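Calcium release and reuptake genes of the heart muscle cell were examined in 3 WT and 3 *Pkm1*-KO libraries of E18.5 hearts. The genes were chosen by name: *Ryr2*, *Trdn*, *Casq2*, *Casq1*, *Hrc*, *Jph2*, *Atp2a2*, *Pln*, *Sln* and *Slc8a1*, 10 in all. Of the 13809 gene symbols in the count table, 9 were of these genes and all 9 passed the filter on low counts; *Sln*, sarcolipin, had no row and was not analysed here. The planned comparison of *Sln*, which marks atrial muscle, with *Pln*, which is mainly ventricular in the mouse, could therefore not be made. KO embryos were homozygous for a CRISPR/Cas9 deletion in exon 9 of *Pkm*, the exon used in the *Pkm1* transcript but not in *Pkm2*, and every cell of the embryo carries it. WT embryos carried no deletion. The line was founded in BDF1 zygotes, a hybrid of C57BL/6J and DBA/2, and neither genotype received a treatment. Tissue is named heart in the labels and ventricular in the study's text. The study's methods describe the libraries of each genotype as biological replicates, and the labels do not say whether each came from a separate embryo.

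In cardiac excitation-contraction coupling, calcium that enters through the L-type channel opens ryanodine receptors in the membrane of the sarcoplasmic reticulum, and the calcium they release activates the myofilaments. Relaxation follows when the SERCA pump returns calcium to the sarcoplasmic reticulum and the sodium-calcium exchanger carries the remainder out of the cell. Release is organised at the junction of the surface membrane with the sarcoplasmic reticulum by junctophilin, triadin, calsequestrin and the histidine-rich calcium binding protein. The pump is held in check by phospholamban and sarcolipin, both small membrane proteins.

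The table gives raw counts, with library totals from 15567624 to 19875546, and 3 counts correspond to 0.153 to 0.197 CPM (counts relative to the library total after TMM scaling, a correction for composition). The columns carry no replicate number, and the libraries are called a to c in column order. The targeted gene, *Pkm*, averaged 1318 ± 41.1 CPM in WT libraries against 542 ± 10.1 CPM in KO libraries (SD, n = 3 each), a difference of -1.28 in log2. *Xist* averaged 5.26 CPM in WT libraries against 2285 CPM in KO libraries, and *Kdm5d*, *Uty*, *Eif2s3y* and *Ddx3y*, all Y-linked, were without a single count in the KO libraries. Genotype and sex of the embryos cannot be told apart in any comparison below, and none of the 9 genes lies on X or Y. WT c stood somewhat apart: the chi-square per degree of freedom over genes was 3.76 and 3.24 against WT a and WT b, and 1.56 to 1.88 for the other pairs within a genotype. Pairs across genotypes were at 15.5 to 18.7. The standard errors and p-values below rest on spread between libraries, and the labels do not say whether this is spread between embryos.

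Of the 9 genes, 6 were lower and 2 higher in KO hearts, where 15.7% of all genes tested were lower and 14.6% higher. The count of lower genes was 5 in DESeq2 and without WT b, KO b or KO c. Genotypes were compared by the quasi-likelihood (QL) test of edgeR over 13804 genes, with p-values adjusted by the method of Benjamini and Hochberg (BH), and a gene was called at an adjusted p under 0.05. In either direction 8 of the 9 were called, beside 30.3% of all genes. The genes were chosen with earlier results of these data known, so this contrast is a description and not a test. The 6 lower genes were the release channel *Ryr2*, its partners *Trdn*, *Jph2* and *Hrc*, the pump *Atp2a2* and its inhibitor *Pln*, with changes from -19.2% to -7.26%. Higher were *Casq1*, by 29.1%, and *Slc8a1*, by 11.6%, and *Casq2* was not called. The median log2 fold change was -0.23 over the 9 genes and 0.0017 over all genes tested. In 6 genes every KO library lay below every WT library, in 2 every KO library lay above, and in *Casq2* the groups overlapped; over all genes these shares were 21.4% and 21.0%, together 42.4%. In bulk tissue, fewer cells of a type and less RNA per cell cannot be told apart.

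**Figure D1:**
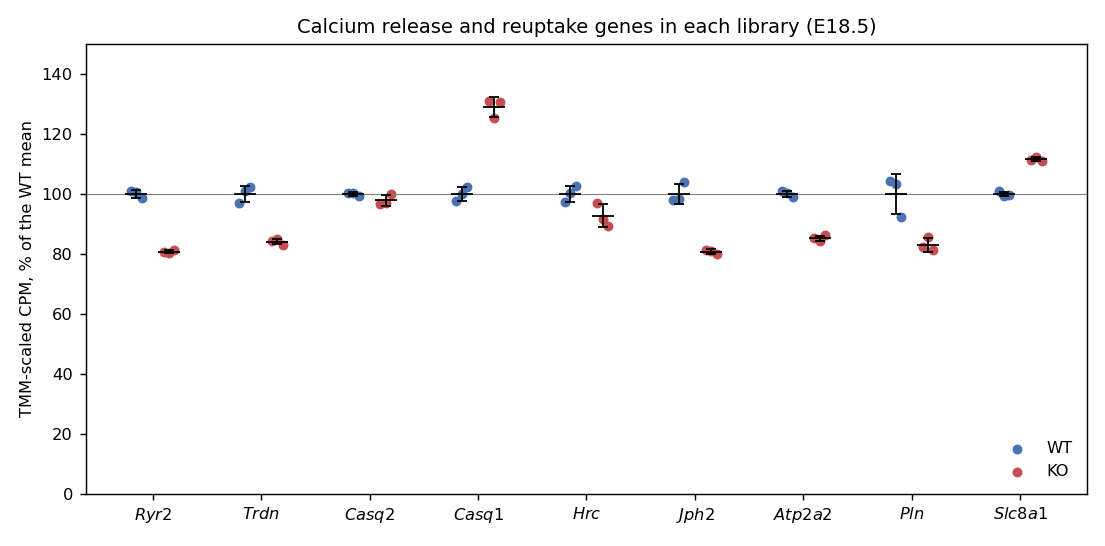
TMM-scaled CPM of each gene as a percentage of its WT mean, with 1 point per library (blue WT, red KO) and the mean with SD (n = 3) in black. The KO points lie below all WT points for *Ryr2*, *Trdn*, *Hrc*, *Jph2*, *Atp2a2* and *Pln*, above them for *Casq1* and *Slc8a1*, and overlap them for *Casq2*.

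The promoters of 7 of the 9 genes were matched by symbol in a RefSeq table of GRCm38.p6. *Atp2a2* and *Trdn*, both called lower, had no entry and were not searched. Because the study examined NFYa, a subunit of the factor that binds the CCAAT box, the 250 bases before each start were searched for CCAAT on both strands, without bases annotated as exon, and for the MEF2 box and the CArG box of muscle genes. Sequences are shown for the 3 genes with CCAAT, all called lower, though *Hrc* not under every alternative. Those of *Ryr2*, lowered without the motif, and *Slc8a1*, which rose, are shown for comparison. The printed windows lie at chr10:53337436-53337666 (*Pln*, plus strand), chr2:163397994-163398243 (*Jph2*, minus), chr7:45335019-45335268 (*Hrc*, plus), chr13:12106946-12107195 (*Ryr2*, minus) and chr17:81738388-81738637 (*Slc8a1*, minus). Each reads 5′ to 3′ towards the gene, and capitals mark CCAAT or its reverse complement ATTGG.
Pln: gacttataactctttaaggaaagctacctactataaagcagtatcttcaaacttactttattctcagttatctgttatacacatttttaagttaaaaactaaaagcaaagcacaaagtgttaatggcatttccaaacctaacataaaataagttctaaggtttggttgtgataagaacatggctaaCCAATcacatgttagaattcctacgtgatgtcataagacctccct
Jph2: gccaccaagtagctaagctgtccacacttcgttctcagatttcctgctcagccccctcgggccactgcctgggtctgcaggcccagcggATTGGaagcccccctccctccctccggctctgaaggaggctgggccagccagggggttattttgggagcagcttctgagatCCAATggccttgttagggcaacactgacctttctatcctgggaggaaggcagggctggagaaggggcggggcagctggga
Hrc: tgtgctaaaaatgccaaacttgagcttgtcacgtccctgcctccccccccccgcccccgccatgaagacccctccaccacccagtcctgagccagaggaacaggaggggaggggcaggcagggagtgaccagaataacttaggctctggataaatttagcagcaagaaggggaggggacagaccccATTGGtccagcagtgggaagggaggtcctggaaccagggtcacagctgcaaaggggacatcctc
Ryr2: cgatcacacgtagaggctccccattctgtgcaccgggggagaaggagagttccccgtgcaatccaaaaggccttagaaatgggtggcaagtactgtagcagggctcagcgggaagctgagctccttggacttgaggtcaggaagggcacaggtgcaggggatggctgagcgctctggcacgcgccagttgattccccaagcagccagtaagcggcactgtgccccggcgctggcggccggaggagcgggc
Slc8a1: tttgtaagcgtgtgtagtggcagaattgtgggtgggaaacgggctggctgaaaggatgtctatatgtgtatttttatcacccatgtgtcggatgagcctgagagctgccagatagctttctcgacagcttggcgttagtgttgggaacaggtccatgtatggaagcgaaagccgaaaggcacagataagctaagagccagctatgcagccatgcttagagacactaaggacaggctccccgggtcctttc
The CCAAT of *Pln* began 64 bases before the start, that of *Hrc* also at -64, and those of *Jph2* at -161 and -80 from the upstream one of its 2 listed starts, whose window is printed. *Casq1* and *Casq2* also held no CCAAT. Thus 3 of 7 genes held the motif, where 33.8% of 32851 promoters in the table did. That share, like those of the other motifs below, counts promoters rather than genes and keeps exon bases. A MEF2 box was present in *Casq2* alone, at -69 (2.92% of all promoters), and a CArG box in none of the 7 (1.47%). These matches of letters are descriptions and not binding sites, and their relation to the direction of change was not tested.

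*Ryr2* encodes the cardiac ryanodine receptor, the channel through which the sarcoplasmic reticulum releases calcium. The gene spans chr13:11553102-12106945 on the minus strand of GRCm38. WT a, b and c were at 4139, 4127 and 4040 CPM, and KO a, b and c at 3309, 3295 and 3333 CPM. The 3 KO libraries lay close together, and all were far below the lowest WT library. The log2 fold change was -0.31 (SE 0.0193, edgeR QL test, BH-adjusted p = 1.04e-12), a decrease of 19.2% with a 95% interval from -21.4% to -17.0%. By p-value it ranked 79 of all genes tested, although 20% of genes had an equal or larger change.

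Triadin, encoded by *Trdn* at chr10:33080554-33476709 (plus strand), anchors calsequestrin to the ryanodine receptor. It was at 145, 151 and 153 CPM in WT a to c and at 126, 127 and 124 CPM in KO a to c. All KO libraries were lower, by a log2 fold change of -0.25 (SE 0.0370, edgeR QL test, BH-adjusted p = 8.43e-06). *Jph2*, at chr2:163336242-163397993 (minus strand), encodes junctophilin-2, which ties the sarcoplasmic reticulum to the surface membrane. Its level was 418, 420 and 444 CPM in WT and 348, 346 and 341 CPM in KO libraries. With a log2 fold change of -0.31 (SE 0.0302, edgeR QL test, BH-adjusted p = 9.54e-09), its decrease of 19.2% was as large as that of *Ryr2*.

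The histidine-rich calcium binding protein, encoded by *Hrc* at chr7:45335290-45338974 (plus strand), binds calcium in the lumen and contacts both triadin and the pump. WT libraries were at 133, 137 and 140 CPM and KO libraries at 133, 126 and 122 CPM. KO a came within 1 CPM of the lowest WT library. The log2 fold change was -0.11 (SE 0.0394, edgeR QL test, BH-adjusted p = 0.0373), and the interval of the percentage change, -12.3% to -1.91%, came close to 0. This call was lost in DESeq2 (adjusted p = 0.0903) and without WT b, KO b or KO c (adjusted p = 0.0974, 0.118 and 0.187, the range without 1 library being 0.0245 to 0.187).

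The calsequestrins, which store calcium in the lumen, parted. *Casq2*, the cardiac form, at chr3:102086415-102146514 (plus strand), was at 867, 866 and 857 CPM in WT and 835, 836 and 864 CPM in KO hearts. KO c lay among the WT libraries. The log2 fold change was -0.03 (SE 0.0249, edgeR QL test, BH-adjusted p = 0.368), and the 95% interval of the change ran from -5.55% to 1.39%, so that a decrease of the size seen in *Ryr2* lay outside it.

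*Casq1*, the calsequestrin of skeletal muscle, lies at chr1:172209894-172219868 on the minus strand. It was at 41.6, 42.6 and 43.6 CPM in WT and 55.8, 53.4 and 55.7 CPM in KO libraries. Every KO library was higher, with a log2 fold change of 0.37 (SE 0.0523, edgeR QL test, BH-adjusted p = 4.58e-06). An antisense gene, *Gm17224*, which had no row in the table, shares 8.0% of the exon bases of *Casq1*.

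The reuptake pump and its inhibitor both fell, by 14.8% and 16.9%. *Atp2a2*, which encodes the SERCA2 pump, lies at chr5:122453513-122502225 on the minus strand. WT libraries were at 5234, 5196 and 5136 CPM, and KO libraries at 4417, 4381 and 4470 CPM. The decrease of 14.8% (95% interval -17.0% to -12.5%) corresponded to a log2 fold change of -0.23 (SE 0.0184, edgeR QL test, BH-adjusted p = 1.77e-10). Of its 50-base words, 3.31% also occur in transcripts of *Gm30970*, and for the other 8 genes at most 0.162% were shared with any other gene.

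*Pln*, which encodes phospholamban, lies at chr10:53337667-53345987 on the plus strand. It was at 2106, 2088 and 1867 CPM in WT and 1662, 1731 and 1643 CPM in KO hearts. WT c was nearer to the KO libraries than were WT a and WT b, but no KO library reached it. The log2 fold change was -0.27 (SE 0.0316, edgeR QL test, BH-adjusted p = 2.53e-07), and without 1 library it ranged from -0.32 to -0.24. *Cep85l*, on the opposite strand, shares 5.11% of the exon bases of *Pln*, and was also lower, at 37.1 ± 2.15 CPM in KO against 52.6 ± 1.64 CPM in WT libraries (SD, n = 3 each, log2 fold change -0.50). A further opposite-strand gene without a row, *Gm47644*, covers 59.6% of them, and whether counting used strand is not given in the sources used here. Opposite-strand exons cover at most 1.57% of the exon bases of the members other than *Pln* and *Casq1*. The genes whose profile over the 6 libraries lay nearest to that of *Pln* were *Rgs5*, *Mpp5* and *Klhl24*, with root mean square differences of 0.0190, 0.0222 and 0.0276 in log2 CPM among 13507 genes compared.

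*Slc8a1*, which encodes the sodium-calcium exchanger NCX1, lies at chr17:81373105-81738377 on the minus strand and rose. Its level was 3501, 3449 and 3461 CPM in WT and 3868, 3899 and 3848 CPM in KO libraries. The groups were separated by far more than the spread within either. The log2 fold change was 0.16 (SE 0.0190, edgeR QL test, BH-adjusted p = 3.38e-07), an increase of 11.6% with a 95% interval from 8.59% to 14.6%.

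Levels of different genes were compared per kilobase of annotated exon. In WT hearts *Atp2a2* was highest at 853 ± 8.09 CPM per kilobase, followed by *Pln* at 732 ± 48.3 and *Casq2* at 316 ± 2.11 (SD, n = 3 each). These 3 ranked 15, 19 and 58 among all tested genes with an exon length. *Slc8a1* (185 ± 1.44), *Ryr2* (142 ± 1.86) and *Jph2* (100.4 ± 3.45) formed the middle of the order in CPM per kilobase, and *Hrc* (53.4 ± 1.42), *Casq1* (21.8 ± 0.523) and *Trdn* (16.0 ± 0.444) the end (SD, n = 3 each). No neighbours in this order overlapped in WT libraries, and the order was the same by the KO means. Exon lengths come from the reference annotation and not from the authors' counting, which limits comparison between genes but not between genotypes.

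**Figure D2:**
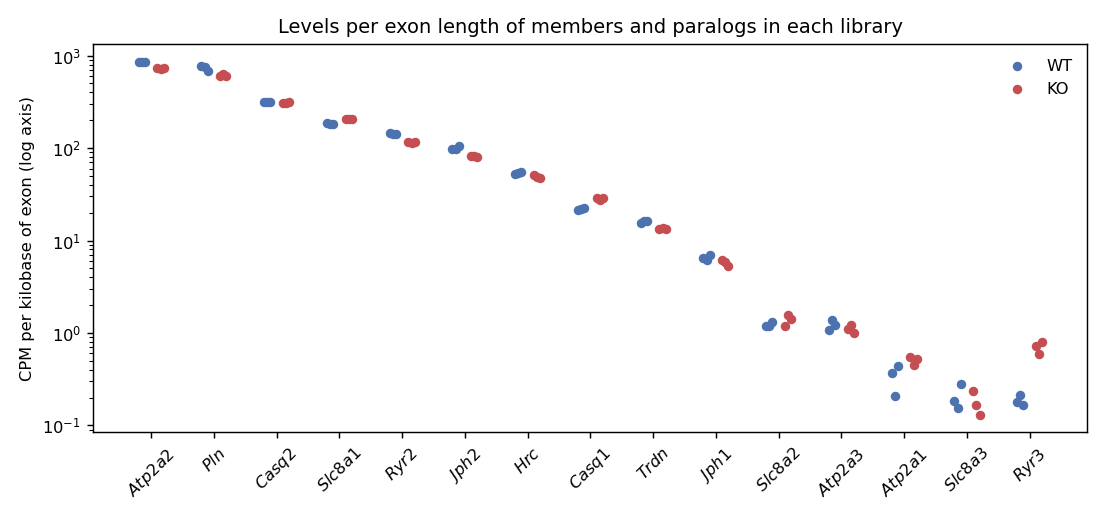
CPM per kilobase of exon on a log axis for the 9 genes and their paralogs, with 1 point per library (blue WT, red KO), ordered by WT mean. *Atp2a2* and *Pln* lead at 853 and 732 CPM per kilobase in WT, and the paralogs sit below *Trdn*, where *Ryr3* rises from 0.185 to 0.710 CPM per kilobase.

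Ratios within a library need no scaling between libraries, and 5 were formed from the counts. With 3 libraries against 3 the exact two-sided permutation test cannot go below 0.1, and 4 ratios whose groups did not overlap reached that value (Benjamini-Hochberg over 5 ratios, 0.125), so that none passed a threshold of 0.05. *Casq2* counts per *Ryr2* count were 0.210 ± 0.00137 in WT and 0.255 ± 0.00358 in KO hearts, 21.2% higher. *Slc8a1* per *Atp2a2* was 0.669 ± 0.00502 in WT and 0.876 ± 0.0146 in KO hearts, 30.9% higher, and the 3 KO libraries were at 0.876, 0.890 and 0.861. *Casq1* per *Casq2* increased from 0.0494 ± 0.00148 to 0.0651 ± 0.00161, by 31.8%, without reaching significance in this design (SD, n = 3 each throughout).

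*Ryr2* per *Atp2a2* was 0.791 ± 0.00383 in WT and 0.749 ± 0.00320 in KO hearts (SD, n = 3 each), a difference of -5.25%. *Pln* per *Atp2a2* overlapped between the genotypes. It was 0.402, 0.402 and 0.364 in WT and 0.376, 0.395 and 0.368 in KO libraries, with an exact permutation p of 0.6 for a difference of -2.40%. The log2 difference of -0.04 ranged from -0.08 to -0.01 with each library left out.

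**Figure D3:**
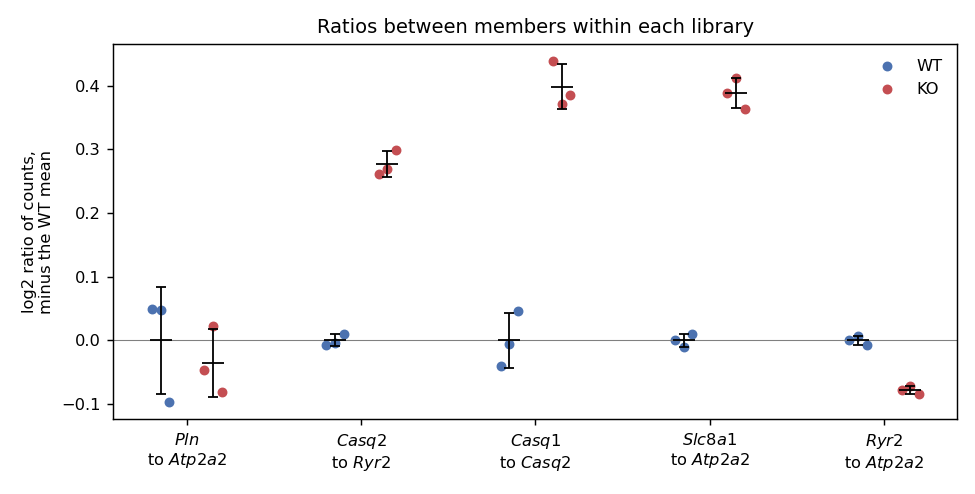
Log2 ratio of counts between pairs of genes within each library, minus the WT mean of that ratio, with 1 point per library (blue WT, red KO) and the mean with SD (n = 3). The groups lie apart for *Casq2* to *Ryr2*, *Casq1* to *Casq2*, *Slc8a1* to *Atp2a2* and *Ryr2* to *Atp2a2*, and overlap for *Pln* to *Atp2a2*.

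Paralogs of these genes were far less abundant, and *Ryr3* rose while *Jph1* was near the threshold. *Ryr3*, a ryanodine receptor isoform of brain and other tissues, lies at chr2:112631355-113217096 (minus strand) and was at 3.36, 4.03 and 3.15 CPM in WT and 13.9, 11.4 and 15.2 CPM in KO libraries. The lowest KO library was well above the highest WT library. The log2 fold change was 1.93 (SE 0.135, edgeR QL test, BH-adjusted p = 1.21e-11), from 48 to 79 counts in WT to 180 to 283 counts in KO libraries. Per kilobase of exon *Ryr3* was at 0.710 CPM in KO hearts, against 115 for *Ryr2*. *Aven*, on the opposite strand, shares 4.83% of the exon bases of *Ryr3* and was not called (log2 fold change -0.12, edgeR QL test, BH-adjusted p = 0.408).

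*Jph1*, the junctophilin of skeletal muscle, averaged 32.6 ± 2.20 CPM in WT against 28.7 ± 2.00 CPM in KO libraries (SD, n = 3 each), near the threshold (log2 fold change -0.18, edgeR QL test, BH-adjusted p = 0.0460). This call was lost in DESeq2 (adjusted p = 0.114) and, in the QL test of edgeR, without WT a, WT c, KO b or KO c (BH-adjusted p = 0.0687, 0.149, 0.0781 and 0.241). *Atp2a1*, the pump of fast skeletal muscle, had 14 to 23 counts in WT and 25 to 36 in KO libraries, and was not called (log2 fold change 0.64, edgeR QL test, BH-adjusted p = 0.0850). Its log2 fold change was 0.36 without WT b (edgeR QL test, BH-adjusted p = 0.395) and 0.86 without WT c, where it was called (0.0349). *Atp2a3*, *Slc8a2* and *Slc8a3* were at 6.45, 6.51 and 1.10 CPM in WT and 5.86, 7.29 and 0.951 CPM in KO hearts, with overlapping groups. *Ryr1*, *Jph3* and *Jph4* had no row in the table.

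Further genes of calcium handling were taken from a list of 66, of which 61 were tested. Of these, 14 were lower and 6 higher past the threshold (23.0% and 9.84%, beside 15.7% and 14.6% of all genes), with a median log2 fold change of -0.05. DESeq2 called 9 lower and 3 higher, and without KO c 9 were lower. Among further release channels and regulators of release, 4 of 10 were lower and 2, the channel genes *Ryr3* and *Itpr3*, higher (40% and 20%). Sorcin, encoded by *Sri*, which binds the ryanodine receptor, had a log2 fold change of -0.24, from 52.6 ± 0.851 CPM in WT libraries to 44.7 ± 0.499 CPM in KO libraries (SD, n = 3 each). The calmodulin gene *Calm3* had a log2 fold change of -0.14 (-0.08 without WT c), and the inositol trisphosphate receptor gene *Itpr3* one of 0.22; both calls were lost without KO b (edgeR QL test, BH-adjusted p = 0.0782 and 0.135), and that of *Itpr3* also without WT b (0.0536) and in DESeq2 (0.0550).

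Of 11 genes of the junction and lumen, 5 were lower and 2 higher (45.5% and 18.2%, beside 15.7% and 14.6% of all genes). The luminal chaperone gene *Calr* fell from 371 ± 26.9 to 321 ± 7.54 CPM, and *Tmem38a*, which encodes a counter-ion channel of the sarcoplasmic reticulum, from 134 ± 1.23 to 118 ± 6.36 CPM (SD, n = 3 each). Its paralog *Tmem38b* had a log2 fold change of -0.35. *Speg*, which encodes a kinase of the junction, rose by 0.19 in log2, from 343 ± 7.46 to 390 ± 7.30 CPM (SD, n = 3 each).

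Among 13 further pumps and regulators of reuptake, 3 were lower and 1 higher (23.1% and 7.69%, beside 15.7% and 14.6% of all genes). *Ppp1r3a*, which encodes a subunit that targets protein phosphatase 1 to glycogen and the sarcoplasmic reticulum, was at 135, 145 and 128 CPM in WT and 83.0, 93.2 and 83.1 CPM in KO libraries. It fell by 36.6%, a log2 fold change of -0.66 (SE 0.0487, edgeR QL test, BH-adjusted p = 3.69e-11), and by value this was more than in any of the 9 genes. *Prkaca*, which encodes a catalytic subunit of the kinase that phosphorylates phospholamban, had a log2 fold change of -0.15. *Prkacb*, another catalytic subunit gene of that kinase, was not called (-0.06). *S100a1*, a calcium-binding activator of the pump, and the kinase gene *Camk2g* were called at -0.22 and 0.11, with overlapping groups. Without WT c, *S100a1* had a log2 fold change of -0.10. Its call was lost in DESeq2 (adjusted p = 0.243) and without WT c, KO b or KO c (edgeR QL test, BH-adjusted p = 0.0725, 0.0843 and 0.0664), and the call of *Camk2g* in DESeq2 (0.0903) and without WT b, KO a or KO c (0.163, 0.10 and 0.182).

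At the surface membrane, 2 of 18 genes were lower and 1 higher (11.1% and 5.56%), below the 15.7% and 14.6% of all genes. The T-type calcium channel genes went in opposite directions: *Cacna1g* was at 85.8, 73.7 and 78.9 CPM in WT and 56.1, 53.2 and 57.6 CPM in KO libraries, and *Cacna1h* at 94.5, 95.9 and 89.1 CPM in WT and 118, 114 and 116 CPM in KO libraries. Both groups were apart in both genes. The log2 fold changes were -0.51 and 0.32 (edgeR QL test, BH-adjusted p = 3.47e-08 and 1.29e-06). *Cacnb2*, a subunit of the L-type channel, had a log2 fold change of -0.22, while its pore gene *Cacna1c* was not called (-0.05). None of 9 genes of mitochondrial calcium uptake and export was called, with log2 fold changes from -0.16 to 0.11.

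**Figure D4:**
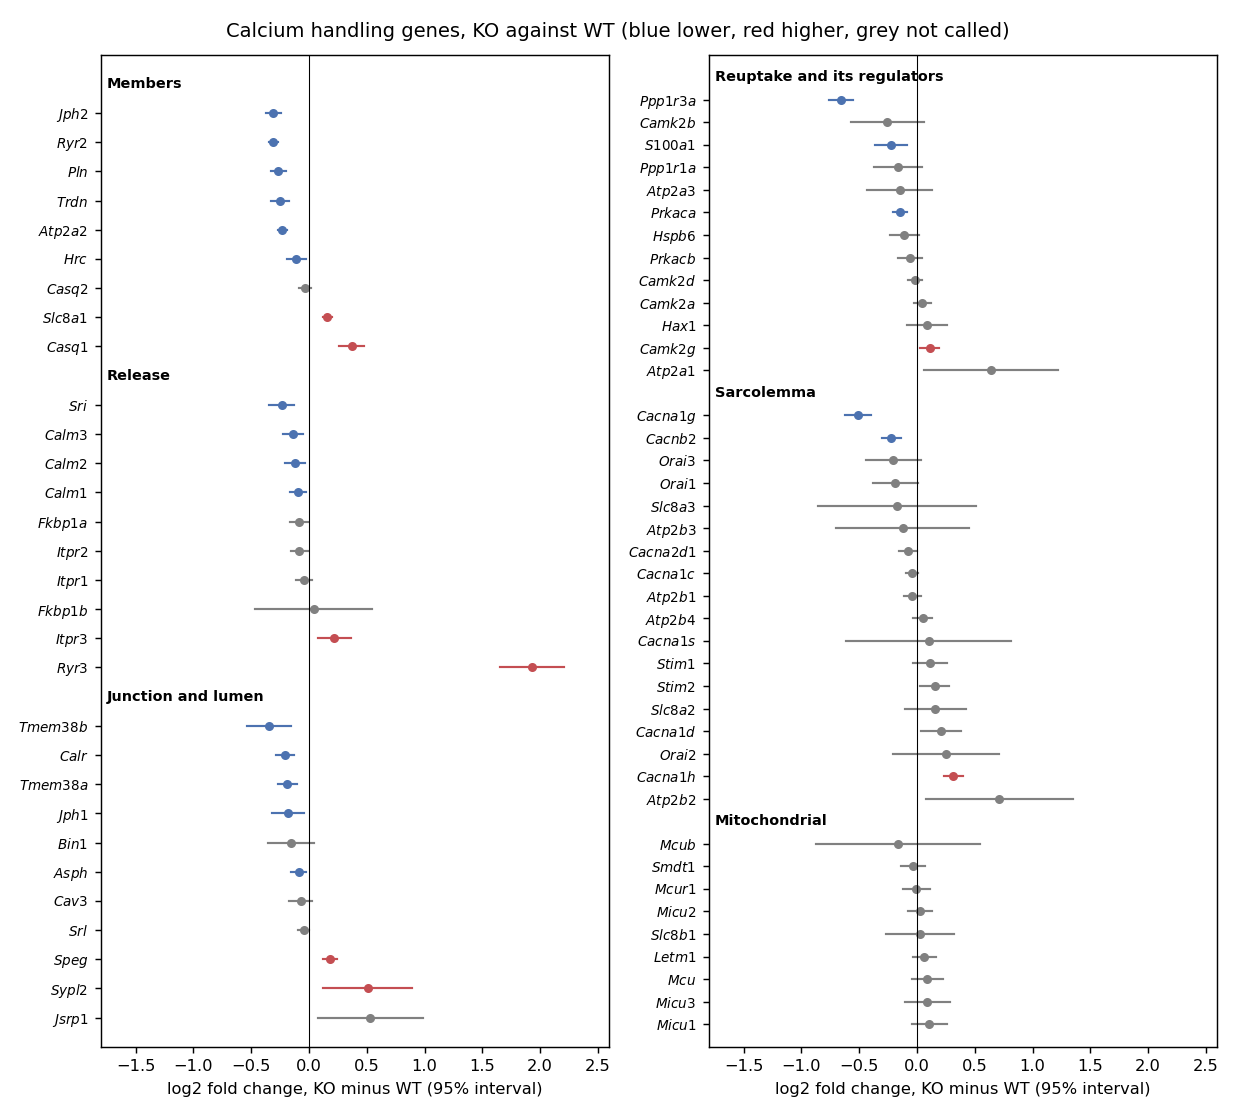
Log2 fold change of KO against WT with its 95% interval for the 9 genes and 61 further calcium handling genes, by role, blue where lower, red where higher and grey where not called (adjusted p of 0.05 or more). The intervals of the 9 genes lie between -0.37 and 0.48, *Ryr3* stands apart at 1.93, and all mitochondrial genes are grey.

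Markers of the cell types that the tissue can hold were examined beside the 9 genes, and their counts stand against the 15.7% of all genes called lower and the 14.6% called higher. Of 7 cardiomyocyte markers, 5 were lower (*Tnnt2*, *Tnni3*, *Actn2*, *Myh6* and *Ttn*, 71.4%), *Actc1* was higher and *Nkx2-5* was not called, with a median log2 fold change of -0.24. Their summed level was 109710 to 112360 CPM in WT and 102930 to 103980 CPM in KO libraries. *Ttn* held most of this sum (mean 78884 CPM in WT) and fell by 3.10%, while *Myh6* went from a mean of 13979 CPM in WT to 10191 CPM in KO. *Actc1* rose by 3.99%. Ventricular markers were divided, with *Myl2* and *Myl3* lower, *Hey2* and *Myh7* higher, and *Irx4* and *Hand1* not called. The rise of *Myh7* was 3.43%, with overlapping groups. *Myh7* held most of the summed level of these markers, whose ranges overlapped (26448 to 28020 CPM in WT, 26934 to 27218 CPM in KO).

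Of 11 atrial markers, 4 were higher (*Myl4*, *Myl7*, *Nppa* and *Dkk3*, 36.4% beside 14.6% of all genes), *Kcna5* was lower (9.09% beside 15.7%) and 6 were not called. The median log2 fold change of the 11 was 0.016. Their summed level was 779.6 to 787.3 CPM in WT and 1188.5 to 1201.6 CPM in KO libraries. That sum followed mainly *Nppa* (mean 372 CPM in WT, 597 CPM in KO) and *Myl4* (142 and 305 CPM), and does not describe the list as a whole. The study's text names the tissue ventricular, and which cells held these transcripts was not tested. *Sln* could not be read beside the atrial markers. Of 15 skeletal muscle markers, 10 had no row in the table, among them *Myod1*, *Myog*, *Myh1*, *Myh2* and *Myh4*. *Ckm*, which the heart also expresses, held nearly all of their summed level, which was 1114 to 1136 CPM in WT and 1025 to 1038 CPM in KO libraries. *Myh3*, *Myh8*, *Mylpf* and *Tnni2* were at most 4.10 CPM in any library; *Myh8* was higher in KO hearts and *Myh3* and *Tnni2* were lower.

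Other cell types were represented by short lists, read beside the 15.7% lower and 14.6% higher of all genes. Of 5 genes each, 3 endothelial markers (60%), 2 smooth muscle markers (40%) and 1 fibroblast marker (20%) were lower. In addition, 1 smooth muscle marker was higher (20%), and no immune marker was called. Of 2 erythroid markers with a row, 1 was higher. The lower endothelial markers were *Cdh5*, *Pecam1* and *Tie1* (-14.3%, -9.30% and -8.04%), and *Kdr* and *Emcn* were not called. The part of any of these cell types in the changes of the 9 genes was not tested.

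**Figure D5:**
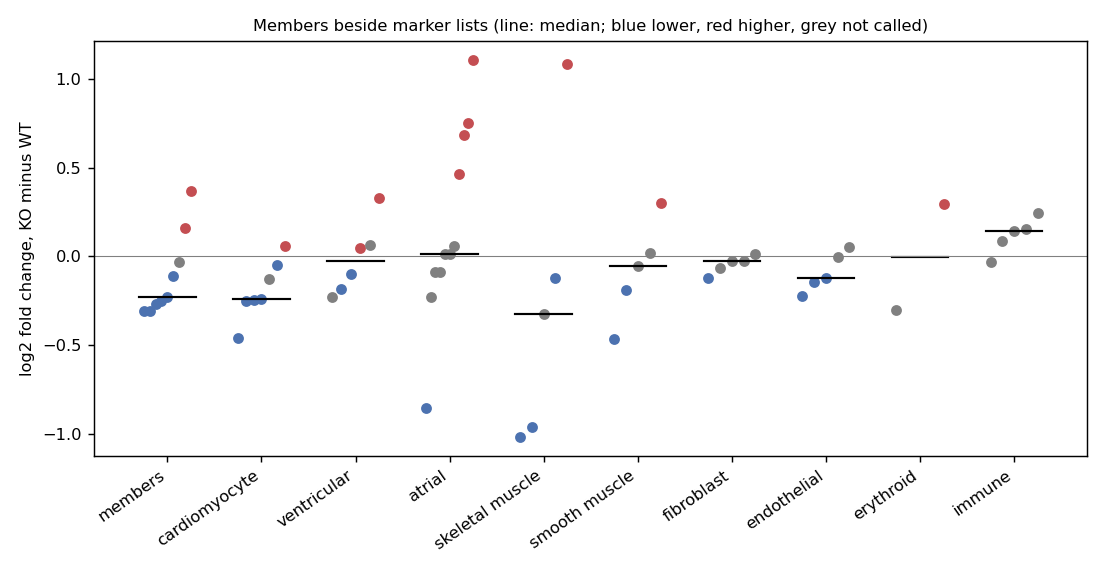
Log2 fold change of KO against WT for the 9 calcium genes and for markers of 9 cell types, with 1 point per gene (blue lower, red higher, grey not called) and the median as a black line. The medians of the calcium genes and the cardiomyocyte markers are -0.23 and -0.24, and atrial markers spread from -0.85 to 1.10.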

How the data were processed

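Total RNA of E18.5 hearts was depleted of ribosomal RNA and sequenced as paired ends in 3 libraries per genotype. Per the labels and the paper's methods, the authors trimmed reads with cutadapt 1.18, aligned them with HISAT2 to mm10 and assembled transcripts with StringTie; the counting program, its use of strand and the filter on genes are not given in the sources used here. What the authors deposited are raw counts for each gene symbol, not normalized, and every gene had at least 59 counts over the 6 libraries. Further columns hold the authors' own comparison (false discovery rates, p-values, mean log2 CPM and log2 fold changes) and were not used.

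Counts were filtered with filterByExpr (13804 genes kept), scaled with TMM and tested in R 4.3.3 with edgeR 4.0.16 by the quasi-likelihood test, genotype being the only term, with p-values adjusted by Benjamini-Hochberg across the 13804 genes and a threshold of 0.05. Ratios of counts were compared by exact permutation in scipy 1.17.1. Genomic positions and exon lengths were taken from GENCODE M21 (GRCm38), in which 13299 of 13809 symbols matched directly and 415 through RefSeq synonyms, and promoters from RefSeq (GRCm38.p6). The test was tried on simulated counts. Alternatives were RLE size factors, DESeq2 1.42.0, edgeR's exact test, other filters, X and Y or *Rn45s* left out, and each library left out. All pairs of libraries differed by more than sampling noise. The limit of 3 counts covers counting error only.

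The members and the lists were chosen with earlier results of these data known. The genes named are the members, their paralogs, in each role up to 4 called genes with the smallest adjusted p, the 3 genes with the profile nearest to *Pln*, and marker genes. *Cacna1c*, *Prkacb*, *Cep85l*, *Aven* and the other overlapping genes were named after their values were seen.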

Additional observations from a re-analysis of the deposited data

How the results depend on the processing

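All 9 genes kept their direction under all 13 alternatives, and 8 of them, *Casq2* included, kept their side of the threshold. Only *Hrc* did not: its log2 fold change was -0.109 (adjusted p = 0.0903) in DESeq2, and -0.142 to -0.0831 with each library left out, without its call when WT b, KO b or KO c was left out. Calls among the 9 were therefore 5 or 6 lower and always 2 higher. Of the wider list of 61 genes, 14 were lower and 6 higher; DESeq2 called 9 lower and 3 higher, and with each library left out 9 (without KO c) to 15 were lower and 4 to 8 higher. Over all genes 1639 (DESeq2) to 2306 were lower and 1363 (DESeq2) to 2165 higher. *Slc8a3*, not called, reversed its log2 fold change from -0.175 to 0.0907 without WT c and 0.0161 without KO c (lowest -0.458, without KO a). The causes were not tested. The 5 ratios kept their direction in 7 alternatives each.

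No paired analysis was possible because library columns bear the genotype alone. Summing WT a with WT b was not run, since their counts differed by more than sampling noise. Ratios with *Sln* could not be computed.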
